A study of Mus musculus and Sus scrofa with 18 samples.

Results

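A list of 10 transcription factor genes that specify or maintain the neurons of the striatum was followed in striatal tissue of WT mice and of the HD 140Q-KI line, a knock-in model of Huntington's disease. The genes were Bcl11b, Foxp1, Foxp2, Rarb, Rxrg, Ebf1, Isl1, Meis2, Six3 and Zfp503, matched by symbol to 10 of the 55357 Ensembl genes in the deposited mouse counts. They were chosen as a list by their role in striatal neurons, with earlier results of these data known. The shares of all tested genes given beside them are therefore descriptive. All 10 passed the filter on low counts, which kept 19463 genes.

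The study sequenced 3′ ends of striatal mRNA from 9 mice in 3 groups of 3, each library from 1 mouse. WT mice received AAV-Ctrl gRNA, which carries a non-targeting guide RNA and no nuclease. Untreated heterozygous HD 140Q-KI mice, in whose Htt gene the first exon is that of human HTT with its CAG repeat expanded, received AAV-CasRx/Ctrl gRNA. Treated mice of the same genotype received AAV-CasRx/HTT gRNAs, with guides against human HTT exon 1. CasRx is a Cas13d enzyme that cuts RNA; here it was driven by the ubiquitous CAG promoter, and the guides by U6 promoters. The AAV9 vectors were injected into both striata at 6 months of age, and the tissue was taken 1.5 months later. Because both HD groups carried CasRx and the WT mice did not, effects of the CasRx vector and of the knock-in cannot be told apart in a comparison with WT. Total counts ranged from 27184356 to 32102121 per mouse.

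Most neurons of the striatum are GABAergic projection neurons of the direct pathway, which express the dopamine receptor Drd1, or of the indirect pathway, which express Drd2. Transcription factors set up this identity in the embryonic lateral ganglionic eminence, and several stay expressed in the adult neuron. Bcl11b (Ctip2), Foxp1, Meis2, Rarb and Rxrg belong to both pathways, whereas Ebf1 and Isl1 act in direct pathway neurons and Six3 in indirect pathway neurons. Isl1 also marks cholinergic interneurons. Lower expression of projection neuron genes is a known feature of Huntington's disease models.

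In untreated mice 7 of the 10 genes were lower than in WT and 0 were higher, against 6.1% of all tested genes lower, at an adjusted p under 0.05 (edgeR's quasi-likelihood test, Benjamini-Hochberg adjustment over 19463 genes). A gene past this threshold is said to be called. The retinoid receptor genes Rarb and Rxrg were lowest, at 26.7% and 32% of their WT means (n = 3 mice a group), and Meis2, Six3, Zfp503 and Bcl11b lay between 46.2% and 53.8%. Foxp1 was at 61.9%. In treated mice Rarb, Rxrg and Meis2 were still lower than in WT, at 51.1%, 52.6% and 61.9% of the WT means, against 2.78% of all tested genes lower. The mean of each of the 10 genes was higher in treated than in untreated mice, but none of them, and none of all tested genes (0%), passed the adjusted threshold in that comparison.

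**Figure D1:**
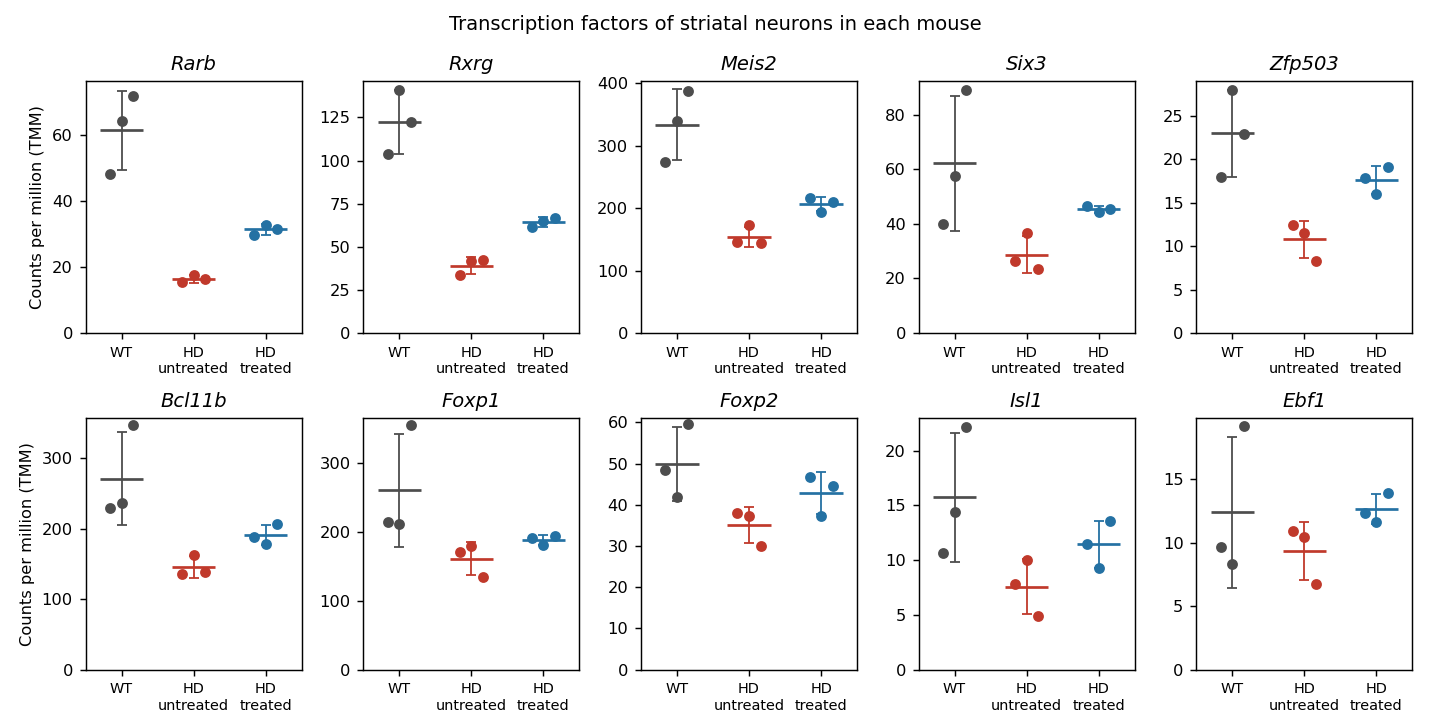
Level of the 10 transcription factor genes in each mouse, in CPM (counts scaled to a common library size with TMM factors; vertical axes start at 0). Points are single mice, horizontal lines are group means and error bars are 1 SD (n = 3). For Rarb the untreated mice lie between 15.4 and 17.6, the treated mice between 29.7 and 32.8 and the WT mice between 48.2 and 71.8, whereas the WT range overlaps with both HD groups for Ebf1.

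Several features of the libraries move with the groups and touch the results below. Y-linked genes were counted in the 3 WT mice and in untreated replicate 1 (3435 to 5005 counts) and had no count in the other 5 mice. Sex and group therefore cannot be told apart between the WT and treated groups. The 10 markers of cortical excitatory neurons, such as Slc17a7, summed to 1129, 534 and 383 CPM in WT replicates 1 to 3, to between 1295 and 1534 in untreated mice and to between 928 and 988 in treated mice, and 3 of the 10 were higher in untreated than in WT mice at an adjusted p under 0.05. The 6 thalamic markers were highest in WT replicate 3 (144 CPM, against 42.2 to 93.8 in the other mice), where the thalamic gene Tcf7l2 reached 35 CPM. The 8 choroid plexus markers varied from 304 to 5364 CPM among WT mice, from 266 to 479 in untreated and from 308 to 2056 in treated mice. The 12 pan-neuronal markers summed to 5515.5 to 6857 CPM in WT, 6589 to 7836 in untreated and 6101 to 6444 in treated mice, and 0 of the 12 were lower in untreated mice at an adjusted p under 0.05, while 2 were higher (Elavl4 and Stmn2, named after their values were seen). Fewer cells of a type and less RNA per cell cannot be told apart in bulk tissue. The targeted gene Htt was counted at 182 to 191 CPM in WT, 140 to 150 in untreated and 130 to 140 after treatment. Its log2 fold change in the treated relative to the untreated group was −0.097 (SE 0.059, adjusted p = 0.942), and a 3′ count does not separate the knock-in from the WT allele. Against WT it was −0.37 in untreated (SE 0.059, adjusted p = 0.00656) and −0.46 in treated mice (SE 0.059, adjusted p = 0.00425). For mice treated at the same age the study reported less mutant HTT mRNA by RT-qPCR and less mutant protein by Western blot.

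**Figure D2:**
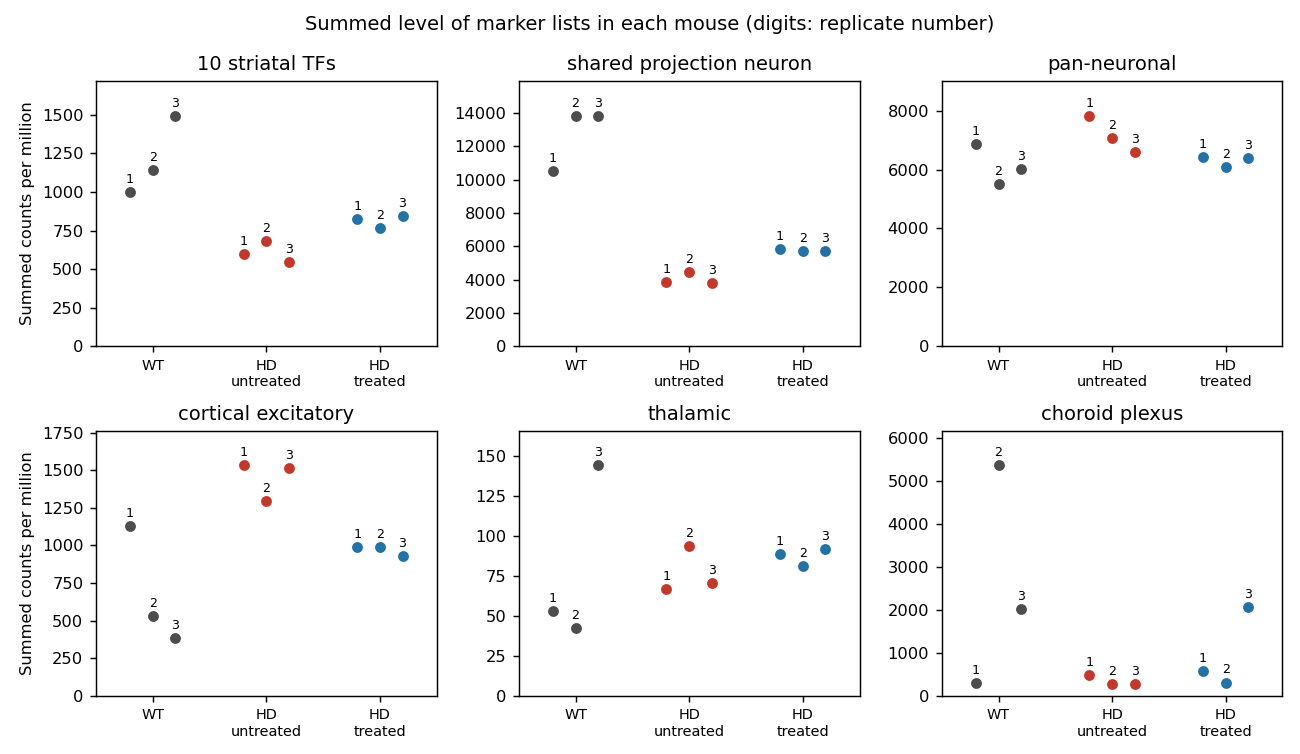
Summed level of the 10 transcription factor genes and of 5 marker lists in each mouse, in CPM; digits are replicate numbers and axes start at 0. The transcription factors sum to 997 to 1496 in WT, 548 to 680 in untreated and 769 to 845 in treated mice, while the cortical markers run from 383 to 1129 in WT mice and from 1295 to 1534 in untreated mice.

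Rarb encodes retinoic acid receptor beta, a nuclear receptor that binds DNA as a heterodimer with a retinoid X receptor. Its levels were 48.2, 64.3 and 71.8 CPM in the WT mice, 15.4, 17.6 and 16.2 in the untreated mice and 29.7, 32.8 and 31.7 in the treated mice. All untreated mice lay below all treated mice, and all treated mice below all WT mice. The fitted log2 fold change was −1.91 in untreated against WT (SE 0.14, adjusted p = 0.000239) and −0.97 in treated against WT (SE 0.14, adjusted p = 0.00654). Without treated replicate 1 the latter was −0.93 (adjusted p = 0.0516). Treated against untreated it was 0.94 (SE 0.14, adjusted p = 0.348, unadjusted P = 6.1e-05), the second smallest P of all genes tested. DESeq2 and edgeR's exact test, which allow for the spread of each gene in other ways, gave adjusted p-values of 5.42e-06 and 0.000136 for that comparison. Both called more genes in it than the quasi-likelihood test did, 48 and 18 against 0 over all tested genes. In the reference annotation the 3′ end of Rarb is overlapped on the opposite strand by Top2b, a DNA topoisomerase, and it is not stated whether the counting used strand. Top2b had group means of 122 CPM (WT), 118 CPM (untreated) and 132 CPM (treated), and a log2 fold change of −0.054 in untreated against WT (SE 0.11, adjusted p = 0.796). Treated against untreated it was 0.16 (SE 0.11, adjusted p = 0.971), and every treated mouse was above every untreated mouse, as for Rarb. The part of Top2b reads in the Rarb counts was not tested.

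Rxrg encodes retinoid X receptor gamma, a nuclear receptor that pairs with retinoic acid receptors and is strongly expressed in striatum. Its levels were 104, 141 and 122 CPM in the WT mice, 33.7, 41.6 and 42.1 in the untreated mice and 61.5, 64.9 and 66.8 in the treated mice. The 3 groups were again separate and in the same order. The log2 fold change was −1.64 in untreated against WT (SE 0.12, adjusted p = 0.000239), −0.93 in treated against WT (SE 0.12, adjusted p = 0.00456) and 0.72 in treated against untreated mice (SE 0.12, adjusted p = 0.398, unadjusted P = 0.000164). DESeq2 and the exact test gave adjusted p-values of 0.000145 and 0.000821 for the last comparison.

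The promoters of both receptor genes are shown because Rarb is a classical target of its own receptor through a retinoic acid response element, a direct repeat of the receptor's binding motif with 5 bases between the copies (DR5). The windows run from 250 bases before to 50 bases after the annotated start and come from RefSeq on GRCm38.p6, which held 13 windows for 9 of the 10 genes. The DR5 search let each copy begin with A or G and hold G or T at the third base, on either strand. The stretch that matched, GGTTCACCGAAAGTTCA, is in capitals in the Rarb promoter (chr14:16575427-16575726, minus strand), 53 to 37 bases before the start. In the Rxrg promoter (chr1:167598112-167598411, plus strand) the capitals mark a CCAAT box read on the other strand, 119 to 115 bases before the start.
Rarb: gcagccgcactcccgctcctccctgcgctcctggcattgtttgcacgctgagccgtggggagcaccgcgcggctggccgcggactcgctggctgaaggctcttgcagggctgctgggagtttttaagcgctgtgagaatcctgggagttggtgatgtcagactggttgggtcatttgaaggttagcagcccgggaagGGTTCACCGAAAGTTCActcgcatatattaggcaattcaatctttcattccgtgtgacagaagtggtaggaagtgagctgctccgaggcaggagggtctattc
Rxrg: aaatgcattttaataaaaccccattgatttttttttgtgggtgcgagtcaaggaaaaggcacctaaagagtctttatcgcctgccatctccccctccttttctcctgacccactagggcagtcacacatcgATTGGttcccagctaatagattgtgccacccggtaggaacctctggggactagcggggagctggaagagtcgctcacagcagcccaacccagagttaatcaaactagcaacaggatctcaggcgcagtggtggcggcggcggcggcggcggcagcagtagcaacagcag
A DR5 match was in 1 of the 13 windows, that of Rarb, and in 0.0974% of all 32851 windows (32). CCAAT, searched on both strands, was in windows of 5 of the genes (Foxp1, Isl1, Meis2, Rxrg and Six3) and in 37.4% of all windows, and TATAAA was in windows of 2 (Bcl11b and Meis2) and in 13.6%. No direct repeat with 1 base between the copies (DR1) was found in these windows, against 0.222% of all windows. A match is a stretch of letters and not a bound site.

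Meis2 encodes a TALE homeodomain protein that works with Pbx and Dlx proteins in the developing striatum. Its levels were 274, 339 and 388 CPM in WT, 145, 173 and 145 in untreated mice and 216, 194 and 210 after treatment, with no overlap between any pair of groups. The log2 fold change was −1.11 in untreated against WT (SE 0.13, adjusted p = 0.00123), −0.69 in treated against WT (SE 0.13, adjusted p = 0.0198) and 0.42 in treated against untreated mice (SE 0.13, adjusted p = 0.886). The call against WT in treated mice was lost without WT replicate 2 or any 1 treated mouse (adjusted p between 0.0737 and 0.114), while the log2 fold change stayed between −0.82 and −0.56 over all 9 such fits.

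Bcl11b encodes the zinc finger protein Ctip2, which is needed for the differentiation of projection neurons and for the patch and matrix layout of the striatum. It was counted at 229, 236 and 346 CPM in WT, 135, 163 and 138 in untreated mice and 189, 179 and 207 after treatment. All 3 groups were separate, and WT replicate 3 stood above the other WT mice. The log2 fold change was −0.90 in untreated against WT (SE 0.15, adjusted p = 0.00935), −0.50 in treated against WT (SE 0.15, adjusted p = 0.105) and 0.40 in treated against untreated mice (SE 0.15, adjusted p = 0.886). DESeq2 and the exact test called the difference between treated and WT mice (adjusted p = 0.0269 and 0.0402).

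Foxp1 and Foxp2 encode forkhead repressors of projection neurons, Foxp2 being known for its role in vocal and motor learning. Foxp1 was counted at 215, 212 and 355 CPM in WT, 170, 179 and 134 in untreated mice and 192, 181 and 194 after treatment. The 3 groups were separate, although the highest treated mouse and the lowest WT mouse differed by less than the spread within WT. Its log2 fold change in untreated against WT was −0.69 (SE 0.19, adjusted p = 0.0494), a call lost with 8 of the 9 mice left out singly and in other settings, and −0.40 (adjusted p = 0.0682) without WT replicate 3. Treated mice differed from WT by −0.47 (SE 0.19, adjusted p = 0.201) and from untreated mice by 0.23 (SE 0.19, adjusted p = 0.994). Foxp2 was counted at 48.4, 41.8 and 59.6 CPM in WT, 38.0, 37.3 and 29.97 in untreated mice and 46.8, 37.2 and 44.5 after treatment. Untreated and WT mice did not overlap, but the log2 fold change of −0.51 (SE 0.15, adjusted p = 0.0598) did not pass the threshold. DESeq2 (adjusted p = 0.0142), the exact test (adjusted p = 0.0269) and scaling to the pan-neuronal markers (adjusted p = 0.00716) called it. The difference was not called with any 1 mouse left out (log2 fold change −0.62 to −0.36, adjusted p between 0.0538 and 0.159). With the cortical markers as an added term it was −0.32 (adjusted p = 0.688). The treated mice overlapped with both other groups (−0.22 against WT, SE 0.15, adjusted p = 0.427, and 0.29 against untreated mice, SE 0.15, adjusted p = 0.902).

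Six3 encodes a homeodomain protein of indirect pathway neurons. It was counted at 40.0, 57.6 and 88.9 CPM in WT, 26.5, 36.5 and 23.3 in untreated mice and 46.5, 44.1 and 45.3 after treatment. The untreated mice were below all others, while the treated mice lay within the wide range of the WT mice. The log2 fold change was −1.11 in untreated against WT (SE 0.26, adjusted p = 0.0295), −0.46 in treated against WT (SE 0.26, adjusted p = 0.344) and 0.66 in treated against untreated mice (SE 0.26, adjusted p = 0.886). Without WT replicate 3 the first of these was −0.76 (adjusted p = 0.057), and the call was also lost, with adjusted p-values up to 0.0834, without WT replicate 2, untreated replicates 1 or 3, or any 1 treated mouse. Six3os1, a noncoding transcript on the opposite strand of Six3, had group means of 25.3 CPM (WT), 11.2 CPM (untreated) and 17.5 CPM (treated; log2 fold change −1.18 in untreated against WT, SE 0.22, adjusted p = 0.0145), and reads of the pair may not be separable.

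Zfp503 (Nolz1) encodes a zinc finger repressor of the developing striatum. It was counted at 17.9, 28 and 23 CPM in WT, 12.5, 11.5 and 8.32 in untreated mice and 17.8, 16 and 19.2 after treatment. Untreated mice were below all others, and treated mice overlapped with WT. The log2 fold change was −1.09 in untreated against WT (SE 0.19, adjusted p = 0.0102), −0.38 in treated against WT (SE 0.19, adjusted p = 0.281) and 0.71 in treated against untreated mice (SE 0.19, adjusted p = 0.821, unadjusted P = 0.00436).

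The factors of direct pathway neurons had few counts (145 to 666 reads a mouse) and no call in any comparison by the quasi-likelihood test with all 9 mice and TMM scaling. Isl1, a LIM homeodomain gene, was counted at 10.7, 14.4 and 22.1 CPM in WT, 7.86, 9.97 and 4.93 in untreated mice and 11.4, 9.29 and 13.6 after treatment. Untreated and WT mice did not overlap, with a log2 fold change of −1.05 (SE 0.31, adjusted p = 0.0599), and DESeq2 called this difference (adjusted p = 0.00679). With 1 mouse left out it ranged from −1.31 to −0.72 (adjusted p between 0.0283 and 0.149). Over all alternatives run it ranged from −1.34 to −0.14, with adjusted p-values up to 0.927. Treated mice overlapped with both other groups, at −0.46 against WT (SE 0.31, adjusted p = 0.421) and 0.59 against untreated mice (SE 0.31, adjusted p = 0.902). Ebf1, a helix-loop-helix factor, was counted at 9.67, 8.29 and 19.2 CPM in WT, 10.9, 10.4 and 6.73 in untreated mice and 12.3, 11.6 and 13.9 after treatment. Its groups overlapped in both comparisons with WT, with log2 fold changes of −0.41 in untreated (SE 0.30, adjusted p = 0.416) and 0.026 in treated mice (SE 0.30, adjusted p = 0.973). WT replicate 3 alone stood above the rest. Without it the difference in untreated mice was 0.061 (adjusted p = 0.882). Every treated mouse was above every untreated mouse, with a log2 fold change of 0.43 (SE 0.30, adjusted p = 0.974).

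**Figure D3:**
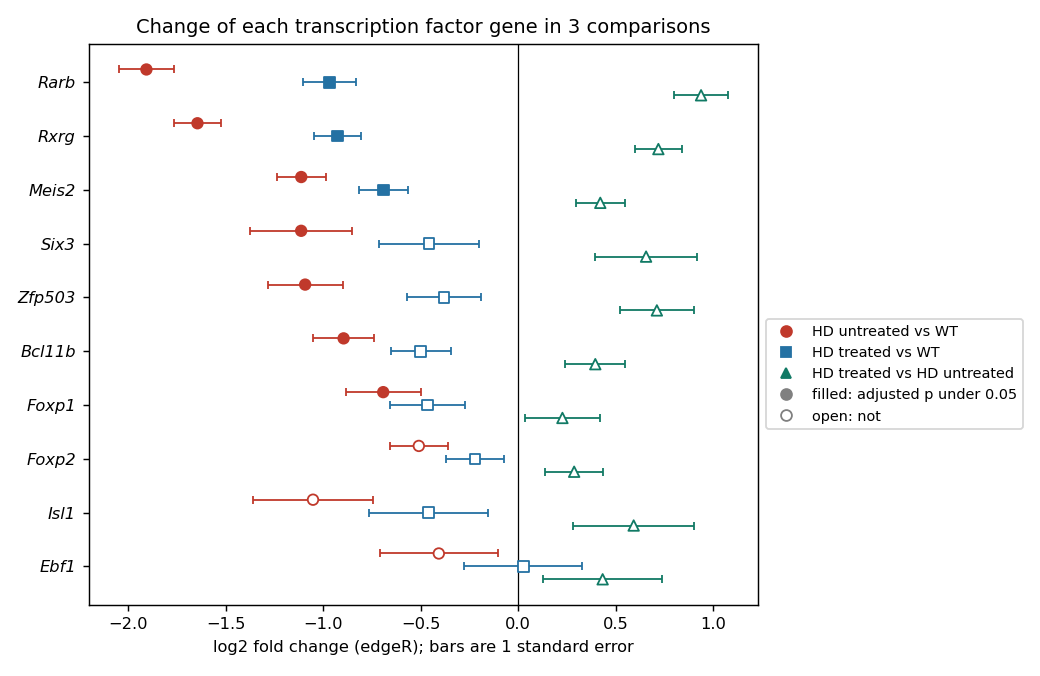
Log2 fold change of each gene in the 3 comparisons with 1 standard error; filled symbols have an adjusted p under 0.05. Untreated against WT mice, 7 genes are filled and range from −1.91 (Rarb) to −0.69 (Foxp1), and treated against WT mice 3 are filled. None is filled in treated against untreated mice, where all 10 lie between 0.23 and 0.94.

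Across the list, untreated against WT mice, 7 of 10 genes were called lower (1188 of 19463 genes in all), and the median log2 fold change was −1.07, against 0.017 over all tested genes. By the cut-off of the study's results for a DEG (at least a 2-fold change with P under 0.05 before adjustment) 6 genes were lower, against 2.58% of all genes. These were Rarb, Rxrg, Meis2, Six3, Zfp503 and Isl1. They include Isl1, which was not called, and leave out Bcl11b and Foxp1, which were. The study's methods set P under 0.01, by which the same 6 genes were lower, against 1.75% of all genes. In 9 of the 10 genes, all but Ebf1, every untreated mouse lay below every WT mouse, against 15.1% of all genes. For each of these 9 a two-sided exact permutation test gave p = 0.1, and no smaller p is possible with 3 mice a group. The log2 fold changes of Six3, Meis2, Zfp503 and Isl1 (−1.11 to −1.05) differed from each other by less than their SEs (0.13 to 0.31), so these genes have no order among themselves.

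Treated against WT mice, 3 of the 10 genes were called lower and 0 met the DEG cut-off at either P (1.38% and 0.925% of all genes were lower by them). The median log2 fold change was −0.46, against 0.0038 over all tested genes, and 5 genes did not overlap with WT (15.1% of all genes). The comparisons of the untreated and the treated mice with WT share their WT mice.

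Treated against untreated mice, 0 of the 10 genes and 0 of all 19463 tested genes were called by the quasi-likelihood test, while 1071 genes had an unadjusted P under 0.05. Of the 10 genes, 6 had such a P, each higher in treated mice (Rarb, Rxrg, Zfp503, Meis2, Bcl11b and Six3), against 2.5% of all genes. DESeq2 called 48 genes and the exact test 18, and both included Rarb and Rxrg but no other gene of the list. The median log2 fold change of the list was 0.51, against −0.014 over all tested genes, and 8 genes did not overlap between the groups, against 6.92% of all genes. In Rarb, Rxrg, Meis2, Bcl11b and Foxp1 all untreated mice were below all treated mice and these below all WT mice, an order found in 1.97% of tested genes.

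The treated mice differed less among themselves than the WT mice did, with a smaller SD of CPM for each of the 10 genes. This was not particular to the list. The SD was also smaller in treated than in WT mice for Snap25 (40.6 against 298 CPM) and Ppp1r1b (30.6 against 358 CPM), but larger for Mbp (1169 against 481 CPM). WT replicate 3 was the highest WT mouse for 8 genes and replicate 1 the lowest for 7. The shares of all genes with these SD and rank patterns were not computed. Within the 4 mice with Y-linked counts, untreated replicate 1 was below every WT mouse for 9 genes, all but Ebf1, against 29.0% of all genes. Within the 5 mice without them, untreated replicates 2 and 3 were below every treated mouse for 8 genes, all but Foxp2 and Isl1, against 11.4% of all genes. Both splits were made after the data were seen, the first rests on 1 untreated mouse, and the part of sex was not tested by them. WT replicate 1, whose cortical markers (1129 CPM) exceeded those of every treated mouse, was above every treated mouse for 6 genes, against 35.0% of all genes, among them Rarb (48.2 against at most 32.8 CPM) and Meis2 (274 against at most 216 CPM). That is 1 mouse, and the part of cortical tissue was not tested by it. The presence of Y-linked counts varied within the untreated group only. A term for it was therefore estimated from untreated replicate 1 against untreated replicates 2 and 3. The difference of untreated from WT mice then rests on untreated replicate 1, and sex and group stay inseparable between treated and WT mice. With the presence of Y-linked counts as an added term, Rarb (−2.0, adjusted p = 0.0129), Rxrg (−1.86, adjusted p = 0.00576) and Meis2 (−1.20, adjusted p = 0.0322) remained called in untreated against WT mice. With the cortical markers as an added term, an alternative chosen after seeing the data, Rarb (−1.42, adjusted p = 0.00635) and Rxrg (−1.38, adjusted p = 0.0245) remained called, while Meis2 (−0.68, adjusted p = 0.0886), Six3 (−0.14, adjusted p = 0.853) and Foxp1 (−0.17, adjusted p = 0.843) did not. Bcl11b was called with neither term (−1.0, adjusted p = 0.0953, and −0.44, adjusted p = 0.519), nor was Zfp503 (−0.88, adjusted p = 0.178, and −0.70, adjusted p = 0.532). In treated against WT mice no gene of the list was called with the Y-linked term, where Rarb was at −1.11 (adjusted p = 0.295) and Rxrg at −1.24 (adjusted p = 0.128).

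**Figure D4:**
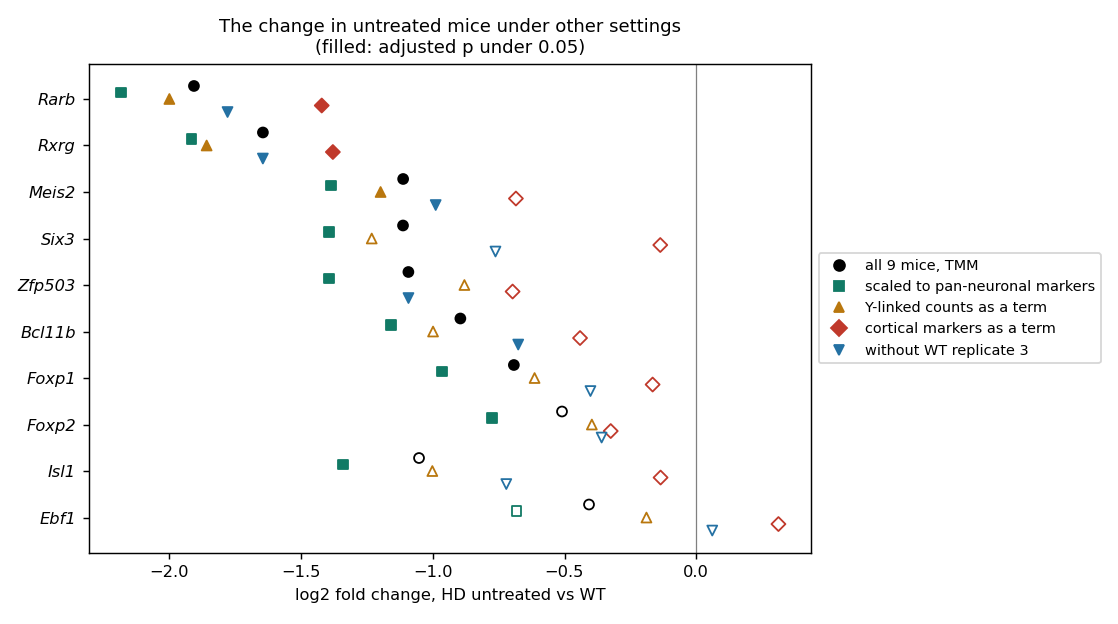
Log2 fold change of each gene in untreated against WT mice with all 9 mice and TMM scaling and under 4 other settings; filled symbols have an adjusted p under 0.05. Rarb (−2.18 to −1.42) and Rxrg (−1.92 to −1.38) are filled in each setting, whereas Ebf1 crosses 0 with the cortical markers as a term (0.31) and without WT replicate 3 (0.061).

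The closest relatives of the 10 genes did not share a direction. Of 19 relatives in the same families, 14 were tested, and in untreated against WT mice 1 was lower and 3 were higher (4.58% of all genes were), with a median log2 fold change of 0.16. Rara, the retinoic acid receptor alpha gene, had 6.26 ± 1.71 CPM in the WT and 14.2 ± 3.37 CPM in the untreated group (SD, n = 3 each), a rise (log2 fold change 1.19, SE 0.23, adjusted p = 0.0142), and 8.59 ± 0.48 CPM (SD, n = 3) after treatment. Meis1 fell by 0.54 on the log2 scale in untreated mice (SE 0.11, adjusted p = 0.0167), from 13.8 to 9.48 CPM, and had a mean of 16.5 CPM in treated mice (0.80 against untreated, SE 0.11, unadjusted P = 3.08e-05, adjusted p = 0.348). Bcl11a rose by 0.40 (SE 0.10, adjusted p = 0.0373) and Zfp703 by 0.75 (SE 0.19, adjusted p = 0.0397), the latter a gene that was named after its values were seen. Rxra, which can pair with the same receptors as Rxrg and was also named after its values were seen, was at −0.39 (SE 0.11, adjusted p = 0.0512). No relative was called in treated against WT mice.

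Other transcription factors of striatal development went in both directions. Of 22 listed, 21 were tested. In untreated against WT mice 6 were lower and 2 higher (6.1% and 4.58% of all tested genes were), and the median was −0.33. The homeobox gene Dlx6 fell by 1.27 on the log2 scale (SE 0.14, adjusted p = 0.00105), from 31.4 to 13.0 CPM, and Pou3f4, a POU factor of the striatum, fell by 1.24 (SE 0.19, adjusted p = 0.0059), from 28.8 to 12.2 CPM. Reads of Dlx6 and of its antisense neighbour Dlx6os1 may not be separable. Klf16, a Krüppel-like factor, fell by 0.72 (SE 0.11, adjusted p = 0.00495). The genes that rose were Ikzf2 (1.04, adjusted p = 0.0314) and Mef2c (1.00, adjusted p = 0.0335), both named after their values were seen. Mef2c is also strongly expressed in cortical neurons, of whose 10 markers 3 were higher in the same mice, and the part of those cells was not tested. In treated against WT mice 3 were lower, namely Dlx6 (−0.69, adjusted p = 0.0279), Klf16 (−0.52, adjusted p = 0.034) and Nr4a1 (−0.68, adjusted p = 0.0337), an activity-induced nuclear receptor named after its values were seen.

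Genes that make, carry or break down retinoic acid, the ligand of the Rarb receptor, had a single call. Of 12 listed, 11 were tested and 1 was lower in untreated than in WT mice. Crabp1, a cytosolic carrier of retinoic acid, fell by 1.31 on the log2 scale (SE 0.28, adjusted p = 0.0204), from 4.21 to 1.69 CPM. The synthesis enzyme gene Aldh1a3 was at most 0.151 CPM in WT and at 0.175 to 0.679 CPM in untreated mice (adjusted p = 0.0577). None was called in treated against WT mice.

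The transcription factors were set beside the markers of the cells that express them. All 12 markers shared by both kinds of projection neuron were called lower in untreated and in treated against WT mice, with medians of −1.68 and −1.10. Scn4b, a sodium channel subunit, fell by 2.04 on the log2 scale in untreated mice (adjusted p = 0.000107), as did Pde10a, a striatal phosphodiesterase (2.04, adjusted p = 0.000154), and Ppp1r1b, the dopamine signalling protein DARPP-32, fell by 1.90 (adjusted p = 0.000172). All 5 direct pathway markers were lower in untreated mice (median −1.15), with the smallest P-values for Chrm4 (−1.15, adjusted p = 0.000828), Drd1 (−1.63, adjusted p = 0.000984) and the neuropeptide gene Tac1 (−0.95, adjusted p = 0.00214), and 2 were lower in treated mice, Chrm4 and Drd1. The 4 indirect pathway markers found in the counts were lower in both (medians −2.13 and −1.40), among them Adora2a (−2.13, adjusted p = 0.000107), Drd2 (−1.89, adjusted p = 0.000262) and Gpr6 (−2.13, adjusted p = 0.000343) in untreated mice. Of 12 interneuron markers 5 were lower in untreated mice, the cholinergic markers Chat, Slc18a3 and Lhx8 together with Nkx2-1 and Nos1, and 1, Chat, in treated mice (named after their values were seen). Isl1 is also a cholinergic gene, and the part of those cells in its level was not tested.

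**Figure D5:**
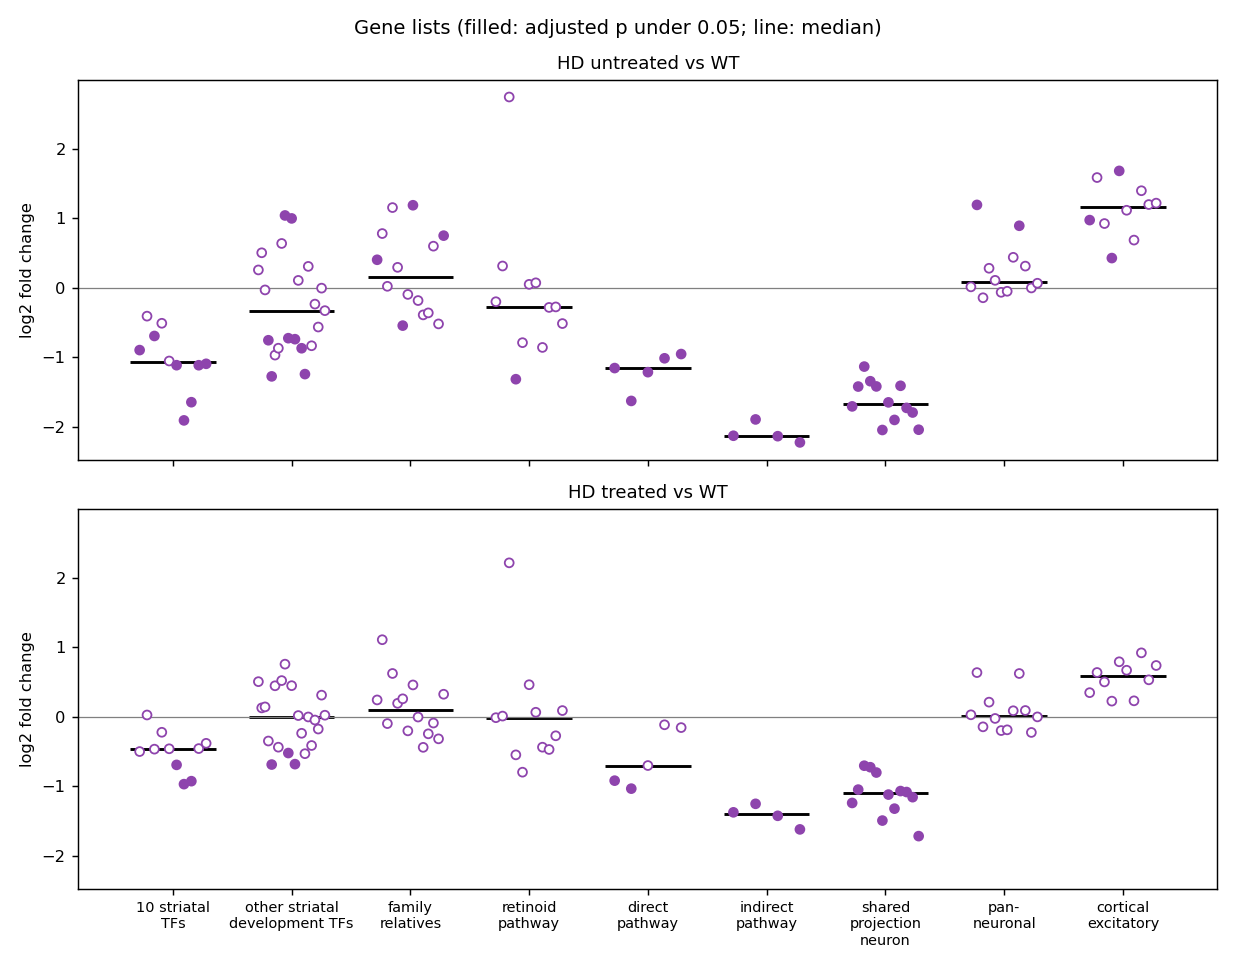
Log2 fold change of every tested gene in 9 lists, in untreated (top) and treated (bottom) against WT mice; filled points have an adjusted p under 0.05 and black lines are list medians. In untreated mice the 10 transcription factors have a median of −1.07, between those of the family relatives (0.16) and the shared projection neuron markers (−1.68), and the cortical markers have a median of 1.16.

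Of the markers of other cells, 0 of 8 astrocyte, 0 of 10 mural and 0 of 8 endothelial markers were lower in untreated than in WT mice, and 1 of 8 oligodendrocyte markers was. Of the same lists, 0 astrocyte, 1 mural and 2 endothelial markers were higher in untreated mice, and 1, 0 and 2 were higher in treated than in WT mice. Among 8 microglia markers, which summed to 323 to 357 CPM in WT and 402 to 983.5 CPM in untreated mice, 1 was higher. Of 14 tested T cell markers 5 were higher and 2 lower (Cd4 and Tcf7, named after their values were seen) in untreated than in WT mice, and the 16 listed summed to 84.1 to 99.0 CPM in WT, 39.3 to 128 in untreated and 53.7 to 70.8 in treated mice. Cd4 made up most of the WT sum, with group means of 72.0 CPM (WT), 18.1 CPM (untreated) and 31.9 CPM (treated). The sum therefore does not follow the other T cell genes. The T cell genes Cd3e, Cd3g and Cd8a were at most 0.134 CPM in WT mice and highest in untreated replicate 3 (9.0, 11.3 and 19.1 CPM). That replicate was also the lowest untreated mouse for 7 of the 10 transcription factors. The share of all genes lowest in it was not computed, and a link from this 1 mouse was not tested. Of 6 tested B cell markers 4 were higher in each HD group than in WT, and the 10 listed summed to 13.9 to 40.5 CPM in WT, 72.8 to 212 in untreated and 127 to 251 in treated mice. The B cell genes Cd79a and Pax5 were at most 1.78 CPM in any mouse. Leaving out untreated replicate 3 gave log2 fold changes of −1.90 for Rarb, −1.70 for Rxrg and −1.07 for Meis2 in untreated against WT mice, each still called.

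For each of the 7 genes called in untreated mice, the genes with the most similar profile over the 9 mice were found by the root mean square (RMS) difference in log2 CPM after subtraction of the WT mean, among 12396 tested genes with a mean of at least 5 CPM. Gnal, the striatal G protein subunit that couples dopamine and adenosine receptors to adenylyl cyclase, lay closest to Meis2 (RMS difference 0.047), and Srgap1 came next (0.066). Rgs9, a regulator of G protein signalling in striatum, lay closest to Rarb (0.15), followed by Sh3rf2 (0.16). Nearest to Rxrg were Actn2 (0.12) and Rem2 (0.13), and nearest to Bcl11b were Crybg3 (0.081) and the potassium channel gene Kcnj2 (0.090). The GABA receptor subunit gene Gabra4 (0.080) and Mctp1 (0.094) came nearest to Foxp1. Unc13c and Plppr1 (0.13 each) were nearest to Six3, and Doc2b (0.17) and Nrg2 (0.18) to Zfp503.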

How the data were processed

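For 9 mice, reads from the 3′ ends of striatal mRNA (oligo-dT priming) were aligned and counted on Ensembl genes by the authors, and the values deposited are raw counts. Their methods name STAR, the submitters' processing notes HISAT2 2.2.1 and featureCounts 2.0.1. The mouse build, the use of strand and the use of molecular identifiers in counting are not given in the sources used here. Symbols came from GENCODE M21. Pig counts were not used. Genes were kept by filterByExpr, libraries scaled by TMM, and all 9 mice fitted together in edgeR 4.0.16 (R 4.3.3; glmQLFit and glmQLFTest, 6 residual degrees of freedom). P-values were adjusted by the Benjamini-Hochberg method over all 19463 tested genes, and a gene was called at an adjusted p under 0.05. SE was derived from the log2 fold change and the F statistic. CPM values are counts scaled to a common library size with TMM factors. Exact permutation tests used log2 CPM with a prior count of 2. In simulated untreated and WT counts over 19463 genes, 31.3% of genes changed 1.5-fold, 65.7% of those changed 2-fold and 95.5% of those changed 4-fold were recovered. Of the called genes 10.5% were false. The changed genes were drawn only from those above a minimum expected count. The members and gene lists were chosen with earlier results of these data known. Beside the 10 members, the 3 genes of smallest P in untreated against WT mice were named in each transcription factor, retinoid and projection neuron list. Not every gene that this rule names is reported here. Alternatives were other scalings, DESeq2 1.42.0, edgeR's exact test, other filters, a fit of the compared groups, a replicate block, a term for Y-linked counts, the study's DEG cut-off and each mouse left out. Terms for cortical and choroid plexus markers and a stricter DEG cut-off were added after the data were seen. Figures were drawn with matplotlib 3.10.9.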

Additional observations from a re-analysis of the deposited data

How the results depend on the processing

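Of the 7 genes called in untreated against WT mice, Rarb and Rxrg were called under every alternative run. The count was 3 with Y-linked counts as a term, 2 with cortical markers as a term and 3 with choroid plexus markers as a term, 5 to 8 in the fits that leave out 1 mouse, and 9 with DESeq2, with the exact test and with scaling to pan-neuronal markers. In treated against WT mice the 3 calls became 0 with the Y-linked term, 0 by the study's DEG cut-off at either P, and 1 to 3 with each mouse left out, the 1 call being that of Rxrg without treated replicate 1. In treated against untreated mice the 0 calls became 2 with DESeq2 and 2 with edgeR's exact test, and stayed at 0 with each mouse left out. The cause of these shifts was not tested, and the Y-linked term rests on untreated replicate 1 against the other untreated mice. Single genes turned direction in these cases, none of them called. For Ebf1 in untreated against WT mice the log2 fold change became 0.31 with the cortical term and ranged from −0.63 to 0.061 with 1 mouse left out, turning without WT replicate 3. For Ebf1 in treated against WT mice it became −0.064 when scaled to pan-neuronal markers and ranged from −0.19 to 0.50 with 1 mouse left out, turning without WT replicate 1, WT replicate 2 or treated replicate 3. With the cortical term Isl1 (0.060) and Six3 (0.10) turned in treated against WT mice, and Foxp1 (−0.0069) in treated against untreated mice. Over all genes, untreated against WT mice, 2080 calls became 251 with the Y-linked term, 35 with the cortical term and 266 with the choroid plexus term, 3473 with DESeq2 and 1096 without a filter. Scaling to pan-neuronal markers moved the median of all genes to −0.25 in untreated against WT mice and to 0.16 in treated against untreated mice, and the medians of the list became −1.36 and 0.70. Calls in the other lists were fewer with the added terms. With the cortical term 0 family relatives, 0 other striatal factors and 0 retinoid genes were called in untreated mice, and with the Y-linked term 0, 1 and 0. Of 9 same-numbered pairs, 2 had deviations that correlated above 0.1, both of an untreated with a treated mouse (0.19 and 0.24). Of the 9 libraries, 4 correlated best with their own number. With 3 mice a group such correlations cannot decide whether the replicate numbers pair the mice. With a replicate block 6 of the list's genes were called in untreated, 3 in treated against WT and 0 in treated against untreated mice, and Foxp1 had an adjusted p of 0.0781.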
